A study of Mus musculus with 9 samples.

Results

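Imprinted genes that restrain or promote growth were followed through stem cells of mouse bone marrow sorted by the surface proteoglycan Syndecan-2. The 10 genes, Cdkn1c, H19, Igf2r, Meg3, Dlk1, Grb10, Ndn, Peg3, Gnas and Plagl1, were picked by name from the 20635 gene symbols of the deposited table, where they account for 41 of 58094 listed transcripts. The cells came from the femurs and tibias of C57BL/6J mice, 10 weeks old and with no treatment or altered gene given. The labels' protocols call the mice male and the series' design text gives mixed sexes. Marrow was depleted of lineage-positive cells and sorted on the KSL CD34- gate, which keeps cells positive for c-Kit and Sca-1 and negative for lineage markers and CD34, and 10000 cells went into each replicate. The Parent population is that whole gate, Syndecan-2+ is its fraction with Syndecan-2 on the surface, and Syndecan-2- is the fraction without it, each measured in 3 libraries. No label says whether the 3 libraries of a population came from separate animals, so p-values measure the spread of these samples alone, and it may be technical.

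Genomic imprinting leaves 1 parental copy of a gene active and the other silent, by DNA methylation that is set in the germ line and kept through later cell divisions. Many imprinted genes act on growth. Copies expressed from the mother often restrain growth and copies expressed from the father often promote it, and several lie in shared domains with a long noncoding RNA. In blood stem cells of the mouse, several of these genes, Cdkn1c and the H19 locus among them, are known for a part in keeping the cells out of division. The deposited values do not separate the parental copies, so nothing here concerns which copy was read or whether an imprint was kept.

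Values are CPM, read numbers set to the same library total, summed over the transcripts of a gene and given per library in the order of replicates 1, 2 and 3, with mean ± SD over n = 3 libraries. The most frequent value above 0 in a library was taken as what 1 read is worth. By that, 1 CPM stands for 15.5 to 20.6 reads in a library and 3 reads for 0.146 to 0.194 CPM. Lower levels were not detectable at this depth (counting error only). Differences are fitted differences in log2(CPM + 1) with their SE, from limma with Benjamini-Hochberg adjustment over the 13997 genes that reached 1 CPM in at least 3 of the 9 libraries, and a gene is called at an adjusted p under 0.05. The added 1 makes these differences smaller than the log2 ratio of the means for genes at a few CPM. Sdc2, the gene for Syndecan-2, was 0.332 ± 0.137 CPM in Syndecan-2-, 1.75 ± 0.290 CPM in Parent and 4.58 ± 0.571 CPM in Syndecan-2+, in the order of the sort. All 8 markers fixed for the stem cell gate were listed, with a summed level of 414 to 457 CPM in Syndecan-2-, 454 to 520 CPM in Parent and 498 to 564 CPM in Syndecan-2+. The sum includes Cd34, which fell, and hides the shifts of the others. Against Syndecan-2-, 6 of the 8 were called higher in Syndecan-2+ and 1 lower, where 20.5% of all tested genes were called higher and 9.51% lower. Mean Fgd5 rose from 3.06 to 31.2 CPM and mean Mecom from 13.2 to 68.3 CPM. Cd34 RNA was still present in the CD34- gate, at 190 to 211 CPM in Syndecan-2- and 37.6 to 50.1 CPM in Syndecan-2+. Library 3 of Syndecan-2+ stands apart by collagen RNA, with Col1a1 at 21 CPM against at most 0.162 CPM in the other 8 libraries, and results that rest on it are given also without it. In sorted bulk samples, fewer cells of a type and less RNA per cell cannot be told apart.

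Of the 10 genes, 6 were higher in Syndecan-2+ cells than in Syndecan-2- cells: Grb10, Meg3, Ndn, Cdkn1c, H19 and Dlk1. No tested member was lower, since all 8 fitted differences were above 0. Igf2r and Gnas did not pass the test, and Peg3 and Plagl1 were under the level at which genes were tested. The 6 calls among 8 tested members stand beside 20.5% of all tested genes called higher in this comparison (2874 genes) and 9.51% called lower (1331 genes). The median difference of the 8 tested members was 1.84, and that of all tested genes was 0.10. H19 and Dlk1 reached the tested level mainly through the Syndecan-2+ libraries, so that the count over tested members describes these genes and is no independent support. With library sizes rescaled by TMM, the calls over all genes were split 1992 higher to 1987 lower (50.1% higher against 68.3% as deposited), the median of all genes moved from 0.10 to -0.00, and the same 6 members were called.

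**Figure D1:**
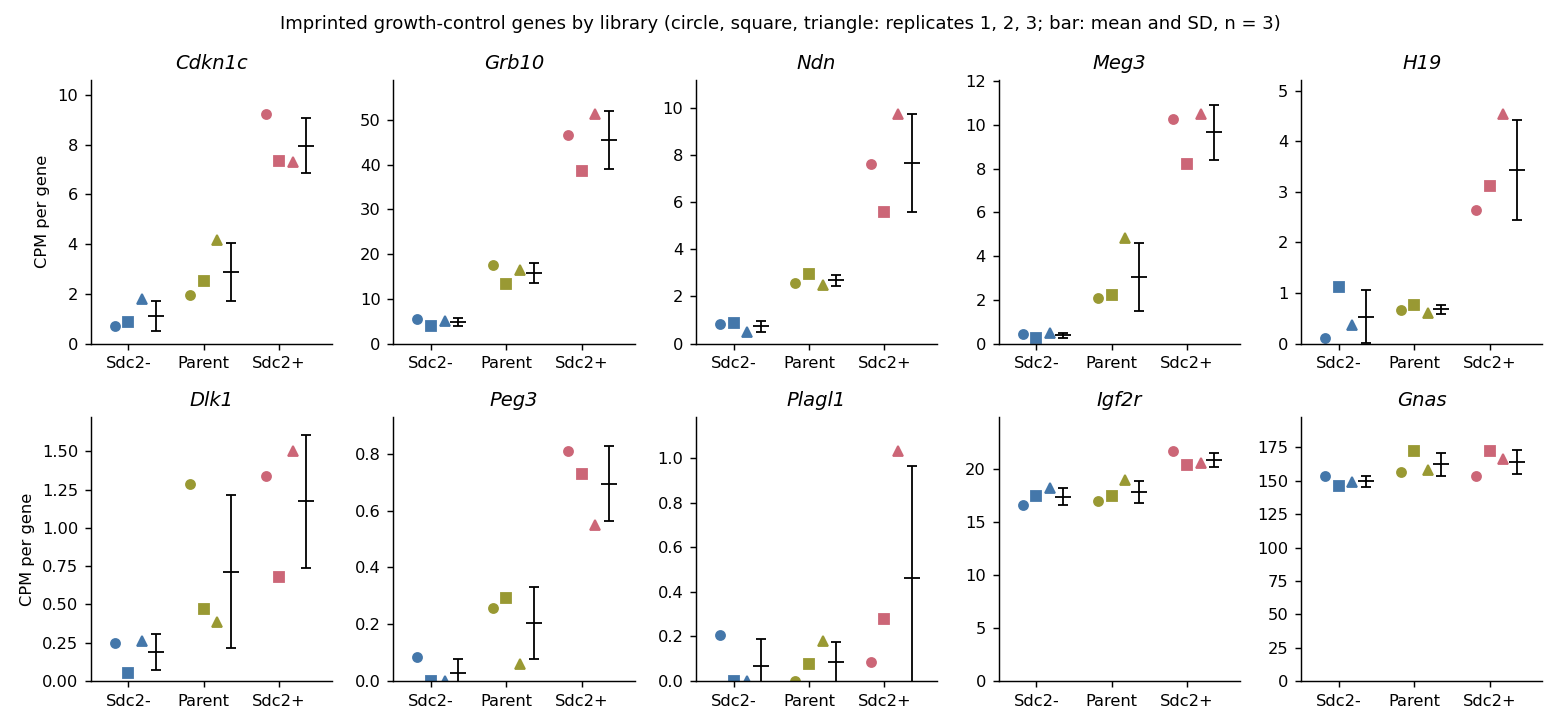
CPM per gene on the vertical axis (each panel has its own scale, from 0) in the Syndecan-2- (Sdc2-), Parent and Syndecan-2+ (Sdc2+) libraries for the 10 genes, where circles, squares and triangles are replicates 1, 2 and 3 and the bars give mean and SD (n = 3). Cdkn1c, Grb10, Ndn and Meg3 climb in 3 separate steps, H19 stands out in Syndecan-2+ only, and Gnas lies between 146 and 172 CPM in all 9 libraries.

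Cdkn1c encodes p57, an inhibitor of the cyclin-dependent kinases that drive cells into S phase, and it is expressed from the maternal copy (ENSMUSG00000037664, chromosome 7, 143458350 to 143461050, minus strand, GRCm38). It was listed at 0.688, 0.864 and 1.79 CPM in Syndecan-2- (1.11 ± 0.591), at 1.94, 2.53 and 4.17 CPM in Parent (2.88 ± 1.16) and at 9.23, 7.33 and 7.30 CPM in Syndecan-2+ (7.95 ± 1.10). The populations did not overlap, and the lowest Syndecan-2+ library lay above the highest Parent library. The mean in Syndecan-2+ was 7.14 times that in Syndecan-2- (difference 2.11 ± 0.23, adjusted p = 1.48e-06) and 2.76 times that in Parent (1.24 ± 0.23, adjusted p = 0.000843). Between Syndecan-2- and Parent the difference of -0.87 ± 0.23 missed the threshold (adjusted p = 0.0540). It passed with the replicate number as a block (adjusted p = 0.0125), without Syndecan-2- replicate 3 (-1.09, adjusted p = 0.0222) and without Parent replicate 1 (-1.05, adjusted p = 0.0382). Behind these values stand about 13 to 34 reads per Syndecan-2- library and 133 to 171 per Syndecan-2+ library.

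Grb10, an adaptor protein that binds the insulin and IGF1 receptors and dampens their signal, was the most abundant member after Gnas, per transcript length, in Syndecan-2+ cells. It is expressed from the maternal copy in most mouse tissues and from the paternal copy in neurons (ENSMUSG00000020176, chromosome 11, 11930508 to 12038683, minus strand). Its level was 5.50, 3.86 and 5.15 CPM in Syndecan-2- (4.84 ± 0.864), 17.6, 13.3 and 16.4 CPM in Parent (15.8 ± 2.23) and 46.6, 38.5 and 51.3 CPM in Syndecan-2+ (45.5 ± 6.49). The 3 populations were well apart, with no overlap in any pair. Syndecan-2+ cells held 9.40 times the mean CPM of Syndecan-2- cells (2.99 ± 0.14, adjusted p = 4.19e-11) and 2.88 times that of Parent (1.47 ± 0.14, adjusted p = 7.48e-07). Syndecan-2- cells were also lower than Parent (-1.52 ± 0.14, adjusted p = 3.32e-06). On the log2(CPM + 1) scale the fitted differences of Meg3 (2.94, 1.45 and -1.49) lay within 1 SE of these, and by the ratio of means Meg3 exceeded Grb10 in each comparison.

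Most Grb10 CPM in Syndecan-2+ cells belonged to Grb10-005, whose listed start lies 1.28 kb after the first listed start of the gene and inside the upstream of 2 promoter windows held for the gene. A further transcript, Grb10-009, starts 10.7 kb after the first start, in the downstream window. Both 300-base windows are shown because the transcripts listed at both starts rose in Syndecan-2+ and the windows differ widely in CpG content (RefSeq, GRCm38.p6, minus strand, 250 bases before and 50 after the start). Capitals mark CG.
Grb10 upstream, chr11:12037371-12037670: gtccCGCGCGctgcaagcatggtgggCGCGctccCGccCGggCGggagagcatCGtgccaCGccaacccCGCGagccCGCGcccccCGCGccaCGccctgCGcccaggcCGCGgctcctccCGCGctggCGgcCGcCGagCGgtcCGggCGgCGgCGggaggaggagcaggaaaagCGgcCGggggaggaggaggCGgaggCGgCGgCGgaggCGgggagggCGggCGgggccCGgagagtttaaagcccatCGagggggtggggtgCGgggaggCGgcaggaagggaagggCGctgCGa
Grb10 downstream, chr11:12027922-12028221: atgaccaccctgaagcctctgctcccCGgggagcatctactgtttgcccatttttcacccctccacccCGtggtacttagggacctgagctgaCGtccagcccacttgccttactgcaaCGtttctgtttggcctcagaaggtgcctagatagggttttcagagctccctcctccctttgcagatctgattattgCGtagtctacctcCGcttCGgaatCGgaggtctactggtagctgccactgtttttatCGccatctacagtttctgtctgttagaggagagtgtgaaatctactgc
The upstream window holds 45 CG, a number that 1.93% of all 32851 RefSeq promoter windows reach, and the downstream window holds 9, which 45.8% reach. Grb10-005 was 3.65 ± 0.779 CPM in Syndecan-2-, 7.85 ± 1.39 CPM in Parent and 26.6 ± 4.67 CPM in Syndecan-2+ (difference of Syndecan-2+ from Syndecan-2- 2.57, adjusted p = 2.28e-05 over all 31579 transcripts tested). Grb10-009 was 0.223 ± 0.250, 3.23 ± 1.29 and 6.02 ± 1.19 CPM in the same order (2.53, adjusted p = 0.000452). Grb10-004, which starts 68.0 kb after the first start, was 0.544 ± 0.919, 3.99 ± 0.397 and 11.1 ± 2.52 CPM (3.11, adjusted p = 0.000341). Its mean in Syndecan-2- rests on replicate 3 (0.0256, 0.000421 and 1.6 CPM) and is 0.0130 CPM without it, where the difference was 3.56 (adjusted p = 5.50e-05). All 3 transcripts rose as listed. How reads were divided between these overlapping transcripts is not given, so the gain cannot be assigned to single starts, and the gene total is the firmer value. The share of Grb10-005 in the gene was 76.3% in Syndecan-2-, against 49.6% in Parent and 58.3% in Syndecan-2+, and the shares of Syndecan-2+ and Syndecan-2- libraries overlapped (exact two-sided permutation p = 0.30).

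Ndn encodes necdin, a MAGE family protein that binds E2F1 and p53 and holds back proliferation. It is expressed from the paternal copy of an intronless gene (ENSMUSG00000033585, chromosome 7, 62348277 to 62349928, plus strand) with 1 listed transcript, so its value does not depend on how reads were divided between isoforms. It was at 0.847, 0.864 and 0.473 CPM in Syndecan-2- (0.728 ± 0.221), at 2.58, 2.94 and 2.50 CPM in Parent (2.67 ± 0.234) and at 7.61, 5.58 and 9.72 CPM in Syndecan-2+ (7.64 ± 2.07). No library of 1 population reached the range of the next. Syndecan-2+ was 10.5 times Syndecan-2- (2.30 ± 0.20, adjusted p = 9.06e-08) and 2.85 times Parent (1.21 ± 0.20, adjusted p = 0.000281), and Syndecan-2- was below Parent (-1.09 ± 0.20, adjusted p = 0.00434). The spread inside Syndecan-2+, a CV of 27.1%, was wider than the 8.32% that counting reads alone gives. Without library 3 of Syndecan-2+, the highest, the difference from Syndecan-2- was 2.13 (adjusted p = 9.92e-07). The window at its start (RefSeq, GRCm38.p6, plus strand, CG in capitals) is shown because all its reads belong to this 1 start.
Ndn, chr7:62348027-62348326: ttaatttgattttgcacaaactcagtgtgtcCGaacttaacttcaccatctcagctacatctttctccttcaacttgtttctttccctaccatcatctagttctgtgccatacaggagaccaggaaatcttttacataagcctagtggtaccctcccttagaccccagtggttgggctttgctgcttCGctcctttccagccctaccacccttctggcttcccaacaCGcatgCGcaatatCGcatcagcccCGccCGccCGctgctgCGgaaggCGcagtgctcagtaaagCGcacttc
It holds 11 CG, a number reached by 41.4% of promoter windows.

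Both long noncoding RNAs of the set, Meg3 and H19, are expressed from the maternal copy and were among the genes that rose. Meg3 is the noncoding partner of Dlk1 in the imprinted domain of chromosome 12 (ENSMUSG00000021268, 109541001 to 109571726, plus strand). In Syndecan-2- it was low, at 0.424, 0.255 and 0.475 CPM (0.384 ± 0.115, about 5 to 9 reads per library). Parent held 2.08, 2.22 and 4.85 CPM (3.05 ± 1.56) and Syndecan-2+ held 10.3, 8.21 and 10.5 CPM (9.66 ± 1.26). The populations were separate, and Parent replicate 3 stood above the other Parent libraries, which gave that population a CV of 51.2% where counting alone gives 14.1%. The ratio of means, 25.1 between Syndecan-2+ and Syndecan-2-, was the widest among the tested members (difference 2.94 ± 0.22, adjusted p = 2.23e-08). Syndecan-2+ was 3.17 times Parent (1.45 ± 0.22, adjusted p = 0.000158), and Syndecan-2- was below Parent (-1.49 ± 0.22, adjusted p = 0.000883).

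Meg3 reads were divided between a start at the first listed base (Meg3-005) and one 4.40 kb further on (Meg3-001). The windows at both starts (RefSeq, GRCm38.p6, plus strand, CG in capitals) are shown because the share of 1 of them did not overlap between the sorted fractions.
Meg3 first start, chr12:109540746-109541045: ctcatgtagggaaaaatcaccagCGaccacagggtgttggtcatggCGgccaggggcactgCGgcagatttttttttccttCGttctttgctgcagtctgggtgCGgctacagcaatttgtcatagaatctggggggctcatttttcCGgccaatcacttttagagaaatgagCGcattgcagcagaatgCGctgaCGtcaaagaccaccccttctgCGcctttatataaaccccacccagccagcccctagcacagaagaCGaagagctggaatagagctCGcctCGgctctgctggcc
Meg3 inner start, chr12:109545148-109545447: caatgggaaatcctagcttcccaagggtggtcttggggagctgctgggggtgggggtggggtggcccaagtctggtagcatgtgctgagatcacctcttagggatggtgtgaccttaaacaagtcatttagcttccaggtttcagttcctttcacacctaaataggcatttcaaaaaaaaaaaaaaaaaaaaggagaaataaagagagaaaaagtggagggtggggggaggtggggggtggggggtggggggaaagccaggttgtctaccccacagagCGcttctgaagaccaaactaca
The first window has 13 CG (37.9% of promoter windows have as many) and the inner one has 1 (94.6%). Meg3-005 was listed at 0.0529, 0 and 0 CPM in Syndecan-2-, at 0.465, 0.189 and 1.81 CPM in Parent and at 2.71, 2.30 and 2.55 CPM in Syndecan-2+ (difference of Syndecan-2+ from Syndecan-2- 1.79, adjusted p = 0.00597). Its share of Meg3 was 4.17% in Syndecan-2- and 26.2% in Syndecan-2+, with no overlap between libraries (exact two-sided permutation p = 0.10, the smallest that 3 against 3 allows). At 5 to 9 reads for the whole gene in a Syndecan-2- library, that share is coarse. Meg3-001 rose from 0.221 ± 0.121 to 5.42 ± 0.851 CPM (2.39, adjusted p = 0.000348).

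**Figure D2:**
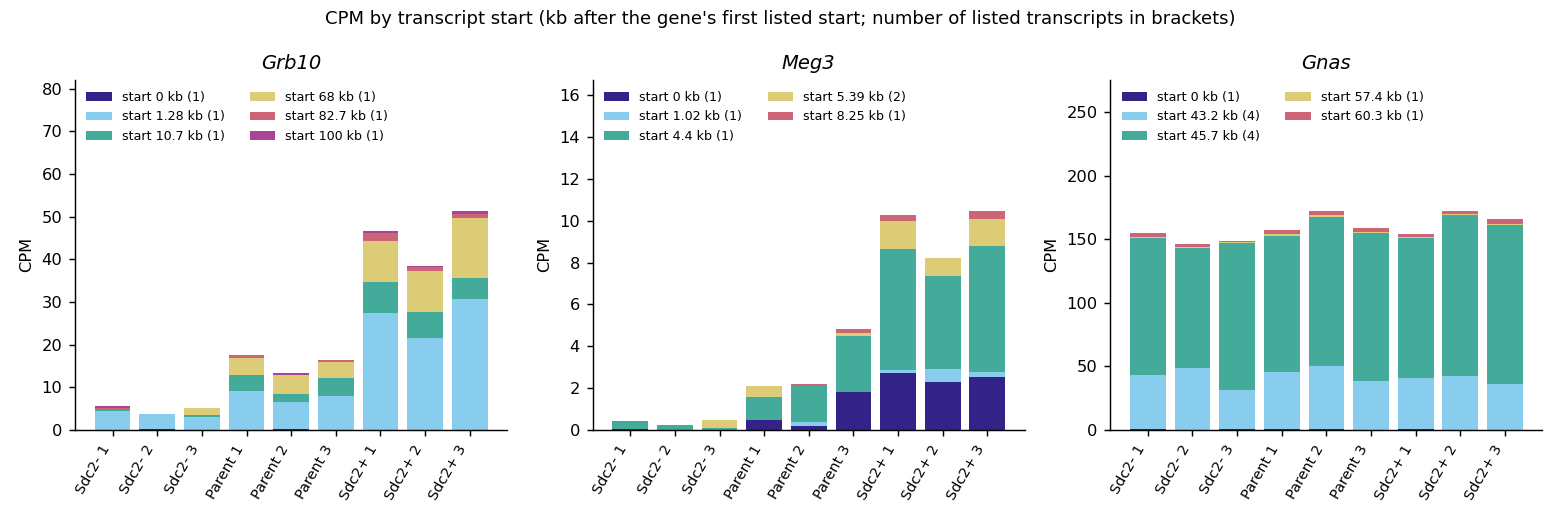
CPM in each of the 9 libraries (Sdc2- and Sdc2+ are Syndecan-2- and Syndecan-2+) on the vertical axis, stacked by the start of the listed transcripts in kb after the first listed start, for Grb10, Meg3 and Gnas. The largest part of Grb10 is listed at the start at 1.28 kb, which reaches 26.6 ± 4.67 CPM in Syndecan-2+. The Gnas columns end between 146 and 172 CPM.

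H19 is the noncoding RNA next to Igf2 and shares its enhancers (ENSMUSG00000000031, chromosome 7, 142575529 to 142578143, minus strand). It was at 0.106, 1.12 and 0.368 CPM in Syndecan-2- (0.531 ± 0.525), at 0.661, 0.768 and 0.596 CPM in Parent (0.675 ± 0.0869) and at 2.64, 3.11 and 4.54 CPM in Syndecan-2+ (3.43 ± 0.988). Syndecan-2+ lay above both other populations without overlap, and those overlapped each other because Syndecan-2- replicate 2 was the highest of the 6 libraries. The difference was 1.56 ± 0.24 from Syndecan-2- (adjusted p = 8.54e-05) and 1.38 ± 0.24 from Parent (adjusted p = 0.000562). Syndecan-2- and Parent did not pass the test (-0.18 ± 0.24, adjusted p = 0.815), and the sign turns under quantile normalization (0.00) and without Syndecan-2- replicate 1 (0.02). Without library 3 of Syndecan-2+, where H19 was highest, the difference from Syndecan-2- was 1.39 (adjusted p = 0.000855).

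H19 and Meg3 transcripts also contain microRNAs. The mature microRNAs were not measured by these libraries, and their sequences (RefSeq, GRCm38.p6) are shown because they are the known small products of the transcripts that rose. Capitals mark the seed, bases 2 to 8.
mmu-miR-675-5p: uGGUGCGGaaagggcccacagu
mmu-miR-675-3p: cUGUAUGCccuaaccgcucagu
mmu-miR-1906: uGCAGCAGccugaggcagggcu
mmu-miR-770-5p: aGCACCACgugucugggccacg
mmu-miR-770-3p: cGUGGGCCugacguggagcugg
The 5 seeds all differ. The miR-675 arms (chromosome 7, 142577112 to 142577133 and 142577078 to 142577099, minus strand) lie in exons of H19-001 and H19-005, and H19-001 rose from 0.347 CPM in Syndecan-2- to 2.27 ± 0.867 CPM in Syndecan-2+ (difference 1.29, adjusted p = 0.0256). H19-001 reached the tested level only through the Syndecan-2+ libraries. In mouse placenta miR-675 limits growth and targets Igf1r. The miR-1906 sequence lies in an exon of Meg3-005, and the miR-770 arms lie in an exon of Meg3-001, both of which rose.

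Igf2r and Dlk1 encode membrane proteins. Igf2r binds IGF2 at the cell surface and carries it to the lysosome for breakdown, and it also sorts enzymes tagged with mannose 6-phosphate. It is expressed from the maternal copy in the mouse (ENSMUSG00000023830, chromosome 17, 12682406 to 12769664, minus strand). Levels were 16.6, 17.5 and 18.2 CPM in Syndecan-2- (17.5 ± 0.788), 17.0, 17.5 and 19 CPM in Parent (17.9 ± 1.02) and 21.7, 20.4 and 20.6 CPM in Syndecan-2+ (20.9 ± 0.708). All 3 Syndecan-2+ libraries lay above the other 6, by a small margin. The mean was 1.20 times that of Syndecan-2-, and the difference of 0.25 ± 0.09 lay at the threshold without passing it (adjusted p = 0.0507). With the replicate number as a block it passed (0.25, adjusted p = 0.0353). Against Parent it was 0.22 ± 0.09 (adjusted p = 0.125), and Syndecan-2- against Parent gave -0.03 ± 0.09 (adjusted p = 0.933, with a sign that turns under TMM, 0.04). The antisense RNA Airn overlaps Igf2r, and whether the counting used strand is not given in the sources used here, so reads of this pair cannot be told apart.

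Dlk1, a Notch-related transmembrane protein expressed from the paternal copy, was scarce everywhere (ENSMUSG00000040856, chromosome 12, 109453455 to 109460700, plus strand). It was listed at 0.249, 0.0508 and 0.263 CPM in Syndecan-2-, at 1.29, 0.469 and 0.387 CPM in Parent and at 1.34, 0.682 and 1.5 CPM in Syndecan-2+, about 1 to 5 reads per Syndecan-2- library. Syndecan-2+ and Syndecan-2- did not overlap, and Parent replicate 1 was as high as the Syndecan-2+ libraries. The difference of Syndecan-2+ from Syndecan-2- was called (0.86 ± 0.24, adjusted p = 0.0125). The call was lost without Syndecan-2- replicate 2 (0.77, adjusted p = 0.0517), without Syndecan-2+ replicate 3 (0.75, adjusted p = 0.0582) and under quantile normalization (0.62, adjusted p = 0.0807). Dlk1 did not pass against Parent (0.36 ± 0.24, adjusted p = 0.381), nor did Syndecan-2- against Parent (-0.50 ± 0.24, adjusted p = 0.385).

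Gnas, which encodes the stimulatory G protein subunit that couples receptors to cyclic AMP, was by far the most abundant member (ENSMUSG00000027523, chromosome 2, 174284320 to 174346744, plus strand). Its levels were 154, 146 and 149 CPM in Syndecan-2- (150 ± 4.06), 157, 172 and 158 CPM in Parent (162 ± 8.05) and 154, 172 and 166 CPM in Syndecan-2+ (164 ± 9.06). Syndecan-2+ and Syndecan-2- met at 154 CPM. The difference between them, 0.13 ± 0.06, did not pass (adjusted p = 0.150). Against Parent the fitted difference was 0.01 ± 0.06 for Syndecan-2+ (adjusted p = 0.923, with a sign that turns under TMM, -0.03) and -0.12 ± 0.06 for Syndecan-2- (adjusted p = 0.476).

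The Gnas locus is imprinted through some of its first exons, whereas the first exon of the G protein subunit itself is read from both copies in most tissues. The starts in that region, 45.7 kb after the first listed start, held 73.6% of the gene's CPM in Syndecan-2+, against 69.8% in Parent and 70.4% in Syndecan-2-, at 121 ± 9.31, 113 ± 5.37 and 106 ± 10.6 CPM. The starts 43.2 kb after the first one, in the region of exon 1A, held 24.0, 27.5 and 27.3% in the same order. Neither share separated Syndecan-2+ from Syndecan-2- (exact two-sided permutation p = 0.60 and 0.50). The first listed start, that of Gnas-007 at the position of Nesp, stayed at 0.384 ± 0.162 CPM in Syndecan-2-, 0.337 ± 0.276 CPM in Parent and 0.364 ± 0.540 CPM in Syndecan-2+. Its antisense neighbour Nespas (174281237 to 174295436) overlaps this start, at 0.793 ± 0.421, 0.196 ± 0.0520 and 0.357 ± 0.241 CPM, and reads of this pair cannot be told apart either.

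Peg3 and Plagl1, zinc finger proteins expressed from the paternal copy, were the least abundant members. Plagl1 is known in the mouse as a transcription factor that acts on other imprinted genes, among them Igf2, H19, Cdkn1c and Dlk1. Peg3 (ENSMUSG00000002265, chromosome 7, 6703892 to 6730421, minus strand) was listed at 0.0846, 0 and 0 CPM in Syndecan-2-, at 0.258, 0.294 and 0.0596 CPM in Parent and at 0.809, 0.728 and 0.549 CPM in Syndecan-2+. At 10 to 15 reads per library, all 3 Syndecan-2+ libraries lay above the others, and the Syndecan-2- libraries were at or under the detection limit (exact two-sided permutation p = 0.10, the smallest possible). With every listed gene tested, Peg3 was higher in Syndecan-2+ against Syndecan-2- (0.72 ± 0.13, adjusted p = 0.000783) and against Parent (0.50, adjusted p = 0.0219). Plagl1 (ENSMUSG00000019817, chromosome 10, 13090788 to 13131694, plus strand) was at 0.0833, 0.278 and 1.03 CPM in Syndecan-2+ and at most 0.206 CPM in the other libraries. Its Syndecan-2+ mean of 0.463 CPM fell to 0.181 CPM without library 3, the populations overlapped, and the fit of every listed gene did not call it (0.41 ± 0.18, adjusted p = 0.144).

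Set against the whole gate, 5 members were higher in Syndecan-2+ than in Parent (Grb10, Meg3, H19, Cdkn1c and Ndn) and 0 were lower, where 9.90% of all tested genes were called higher and 7.31% lower (17.2% in all). The 8 fitted differences were all above 0 (that of Gnas turns under TMM), with a median of 1.22 against 0.05 over all genes. In the Syndecan-2- fraction, where all 8 fitted differences were below 0 (that of Igf2r turns under TMM and that of H19 under quantile normalization), 3 members were lower than in Parent (Grb10, Meg3 and Ndn) and 0 were higher, where 2.54% of all genes were called lower and 0.121% higher (2.66% in all). Of the calls over all genes in this comparison, 4.56% were higher as deposited and 15.4% with TMM rescaling. The total rested on single libraries, with 373 genes called in all, 236 without Syndecan-2- replicate 2, 217 without Parent replicate 1 and 232 without Parent replicate 3, and the block raised it to 685. Cdkn1c, Meg3, Grb10 and Ndn, 4 of the 10 members, ran from Syndecan-2- through Parent to Syndecan-2+ with no overlap between populations, as did 980 of the tested genes. Another 311 ran in the opposite order, so that 9.22% of tested genes had Parent between the fractions in this way. The 3 comparisons share libraries, so their values are given side by side and are not independent of each other.

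**Figure D3:**
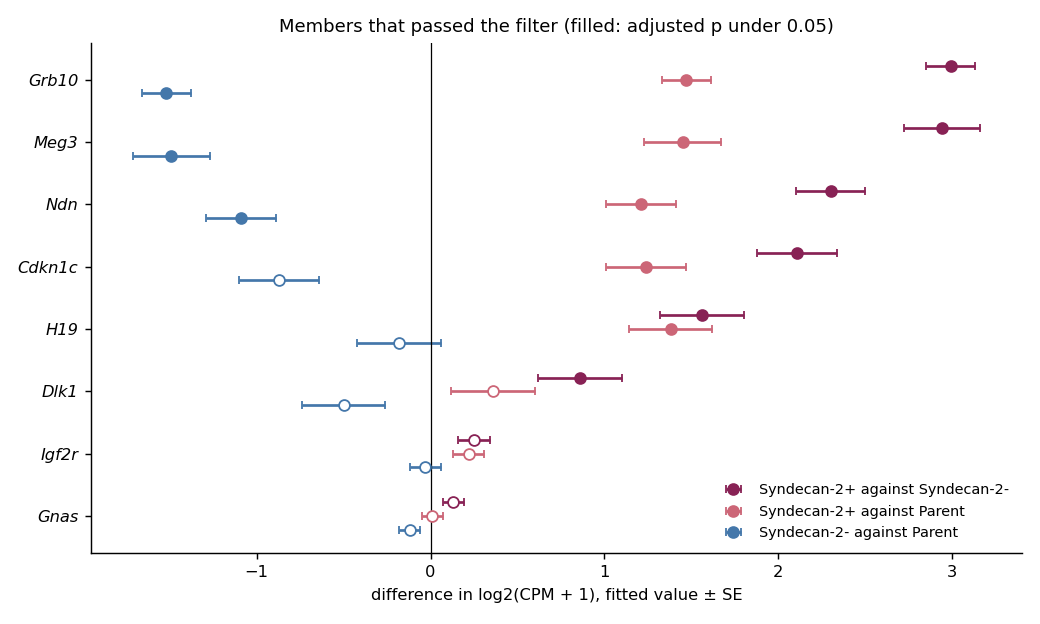
Fitted difference in log2(CPM + 1) with SE on the horizontal axis for the 8 members that were tested, in the 3 comparisons (colours), with filled points at an adjusted p under 0.05. Grb10 runs from -1.52 to 2.99, and the Igf2r and Gnas points are all open and within 0.25 of zero.

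The members also differ widely in level. Levels per kb of transcript length allow members to be ranked within a population. In Syndecan-2+, Gnas led with 108 ± 6.36 CPM per kb and Grb10 followed with 13.2 ± 2.42 CPM per kb. Ndn (4.62 ± 1.25), Cdkn1c (4.20 ± 0.576), Meg3 (4.10 ± 0.961), Igf2r (2.76 ± 0.490), H19 (2.05 ± 0.342) and Dlk1 (1.5 ± 0.760 CPM per kb) formed a run in which each overlapped the next in its libraries. Plagl1 and Peg3 were under 0.1 CPM per kb on average. In Syndecan-2- the order after Gnas (96.7 ± 1.98 CPM per kb) was Igf2r (2.82 ± 0.874), Grb10 (1.48 ± 0.328) and then Cdkn1c (0.587 ± 0.311), each apart from the one before. Igf2r thus held rank 2 in Syndecan-2- and rank 6 in Syndecan-2+. Its levels per kb, 2.82 and 2.76, are coarse, because each transcript was divided by its own length and short ones weigh heavily. Igf2r-003, of 245 bases, was at 0.457 CPM in Syndecan-2- replicate 2. Igf2r-001, of 8887 bases, held 98.4% of the gene's CPM in Syndecan-2- on average. It was 17.2 ± 0.639 CPM in Syndecan-2- and 20.8 ± 0.563 CPM in Syndecan-2+.

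The 41 transcripts of the 10 genes were also tested singly. Of 19 that reached the tested level, 8 were higher in Syndecan-2+ against Syndecan-2- and 0 were lower, where 4.93% of all 31579 tested transcripts were called higher and 3.09% lower (8.02% in all). The 8 belong to 5 genes: 3 of Grb10, 2 of Meg3 and 1 each of Ndn, H19 and Cdkn1c. H19-001 reached the tested level only through the Syndecan-2+ libraries and Meg3-005 mainly through them, so that the count is no independent support. Cdkn1c-202 was called (1.84, adjusted p = 0.00386) and Cdkn1c-201 was not (1.39, adjusted p = 0.116). The 2 share 1 genomic span, and the deposited values give Cdkn1c-201 the same 72.6% of the gene in each Syndecan-2- library and 20.9 to 72.6% in Syndecan-2+, so the gene total is the firmer value. Of 16 transcripts whose share was compared, 3 did not overlap between Syndecan-2+ and Syndecan-2-, where 11.5% of 23366 transcripts compared in the same way over all genes did not overlap. These are Meg3-005 and the Cdkn1c pair, whose shares are complements of each other and touch at 72.6%. The count was 10 without Syndecan-2- replicate 3 and 2 without Syndecan-2+ replicate 1 or 2.

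The letters TGCCGC, the core of the sequence that the imprint protector ZFP57 binds when methylated, were searched on both strands of the promoter windows. They were found in the upstream Grb10 window, the first Meg3 window and the Plagl1 window, each with 1 match on the strand opposite to the gene (GCGGCA as printed), and each match includes 1 of the CG in capitals. Windows were held for 8 of the 10 members, 13 in all, and 11.6% of all RefSeq promoter windows contain the letters. Cdkn1c and H19 had no window. Such matches describe these letters only.

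Other imprinted genes were then set beside the members. Of 27 further genes listed as paternally expressed in at least some tissues, 11 were tested. In Syndecan-2+ against Syndecan-2-, 6 rose, 0 fell and 5 did not pass (median 0.48, all genes 0.10). Over all tested genes 20.5% were called higher and 9.51% lower. Peg10, a gene derived from a retrotransposon and needed in placenta, was 1.16, 7.22 and 1.53 CPM in Syndecan-2- and 8.26, 19 and 8.07 CPM in Syndecan-2+ (1.74 ± 0.39, adjusted p = 0.00239). Replicate 2 was the highest library in all 3 populations (6.06 CPM against 4.58 and 3.16 CPM in Parent). Its neighbour Sgce, a sarcoglycan, was 1.43, 2.08 and 3.03 CPM and 6.09, 4.30 and 5.30 CPM (0.99 ± 0.20, adjusted p = 0.00107). Peg12, which lies near Ndn, rose by 0.76 ± 0.19 (adjusted p = 0.00487), Impact, a regulator of translation under stress, by 0.59 ± 0.15 (adjusted p = 0.00631), and the splicing factor Zrsr1 by 0.48 ± 0.12 (adjusted p = 0.00420). Airn, the antisense RNA at Igf2r, rose by 0.89 ± 0.25 (adjusted p = 0.0104), a call lost without Syndecan-2+ replicate 3 (0.73, adjusted p = 0.0588) and under quantile normalization (0.67, adjusted p = 0.0620).

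Of 31 further genes listed as maternally expressed in at least some tissues, 16 were tested. Of these 8 rose, 2 fell and 6 did not pass (median 0.37), beside 20.5% of all tested genes called higher and 9.51% lower. Rian, a noncoding RNA that follows Meg3 in the same domain, was 0.0556, 0 and 0.477 CPM in Syndecan-2-, 1.40, 2.02 and 1.20 CPM in Parent and 2.92, 3.75 and 4.87 CPM in Syndecan-2+. It rose against Syndecan-2- (2.04 ± 0.22, adjusted p = 1.73e-06) and Parent (0.93 ± 0.22, adjusted p = 0.00746) and was the 1 gene of this list lower in Syndecan-2- than in Parent (-1.12 ± 0.22, adjusted p = 0.00932). That call was lost without Syndecan-2- replicate 2 (-1.01, adjusted p = 0.0525) and at a pseudocount of 5 (-0.34, adjusted p = 0.0636). With the replicate number as a block 4 genes were lower there, the others being Phlda2 (-0.73, adjusted p = 0.0441), Slc22a3 (-0.35, adjusted p = 0.00207) and Ppp1r9a (-0.34, adjusted p = 0.0207). The block also raised the lower calls over all 13997 tested genes, from 356 to 613. Meg3, Rian and Dlk1 thus rose in 1 domain. Phlda2, a growth restrainer of the placenta near Cdkn1c, was 0.212, 0.203 and 0.578 CPM in Syndecan-2- and 2.00, 1.5 and 1.98 CPM in Syndecan-2+ (1.09 ± 0.21, adjusted p = 0.000642). Ppp1r9a (0.84, adjusted p = 1.82e-05), the cation transporter Slc22a3 next to Igf2r (0.67, adjusted p = 6.56e-05) and the tetraspanins Tspan32 (0.60, adjusted p = 0.000105) and Cd81 (0.53, adjusted p = 0.000236) rose as well. Atp10a, a lipid flippase, fell (-0.62 ± 0.10, adjusted p = 0.000142). Tssc4 rose by 0.47 ± 0.13 (adjusted p = 0.0115), a call lost without Syndecan-2- replicate 2 (0.41, adjusted p = 0.0521), without Syndecan-2+ replicate 3 (0.34, adjusted p = 0.0787) and under TMM (0.36, adjusted p = 0.0514). The last 2 calls, named after their values were seen, were Commd1 (0.37, adjusted p = 0.0144) and Osbpl5 (-0.55, adjusted p = 0.0163). Commd1 lost its call without Syndecan-2- replicate 1 (0.33, adjusted p = 0.0513), without Syndecan-2+ replicate 3 (0.34, adjusted p = 0.0558) and under TMM (0.26, adjusted p = 0.0782), and Osbpl5 without Syndecan-2- replicate 3 (-0.44, adjusted p = 0.0909) or Syndecan-2+ replicate 1 (-0.48, adjusted p = 0.0676).

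**Figure D4:**
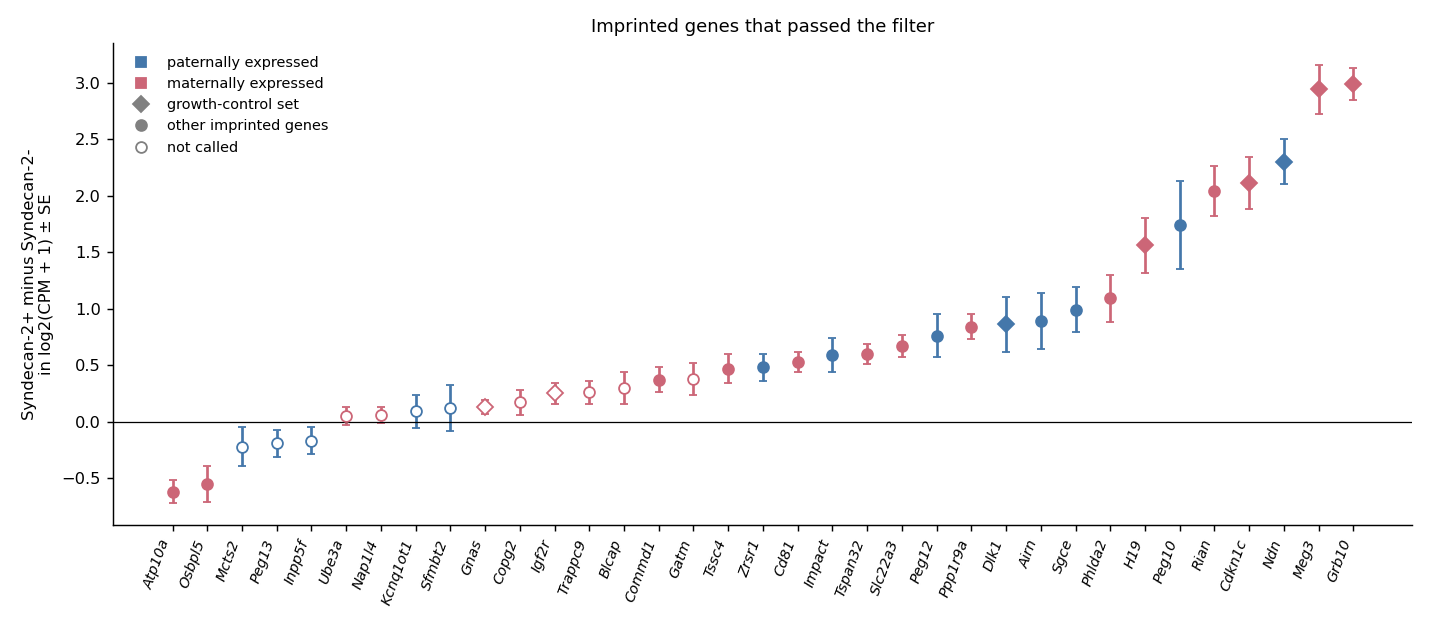
Difference between Syndecan-2+ and Syndecan-2- in log2(CPM + 1) with SE (vertical axis) for the imprinted genes that were tested, ordered by size. Diamonds are the growth-control set, circles the other imprinted genes and open symbols genes not called. Colour gives the parental copy under which a gene was listed, which need not hold in every tissue. Gnas is drawn as maternal. Grb10 (2.99), Meg3 (2.94), Ndn (2.30) and Cdkn1c (2.11) are at the upper end, and Atp10a (-0.62) and Osbpl5 (-0.55) at the lower.

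Igf2, which encodes the fetal growth factor cleared by Igf2r and lies next to H19, was too low for the test. It was listed at 0, 0.0508 and 0.514 CPM in Syndecan-2-, at 0.786, 0.279 and 0.518 CPM in Parent and at 0.704, 1.26 and 2.50 CPM in Syndecan-2+, and was called with every listed gene tested (1.03 ± 0.24, adjusted p = 0.00523). The highest value was again in library 3 of Syndecan-2+, without which the Syndecan-2+ mean of 1.49 CPM is 0.983 CPM. Rtl1, expressed from the paternal copy of the Meg3 domain, was at 0.701, 0.545 and 0.672 CPM in Syndecan-2+ and at most 0.298 CPM elsewhere (0.69, adjusted p = 0.00100 with every listed gene tested). Whether strand was used is not given, so any antisense reads at Rtl1 cannot be told apart from its own.

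Around Igf2r and Grb10, the wider IGF and insulin pathway moved both ways. Of its 28 members, 23 were listed and 17 tested, of which 8 rose, 4 fell and 5 did not pass in Syndecan-2+ against Syndecan-2- (median 0.19), beside 30.0% of all genes called in either direction. Igf1r, the receptor that Grb10 dampens, was 56.5, 52.1 and 52.0 CPM in Syndecan-2-, 66.8, 63.3 and 69.7 CPM in Parent and 89.3, 76.6 and 84.7 CPM in Syndecan-2+ (0.63 ± 0.07, adjusted p = 4.17e-06). Igf2bp2, which binds Igf2 mRNA, was 1.91, 0.965 and 1.79 CPM in Syndecan-2- and 7.85, 6.85 and 10.1 CPM in Syndecan-2+ (1.87 ± 0.19, adjusted p = 5.71e-07), whereas Hmga2, a chromatin protein that activates it, fell from 17.3, 15.4 and 14.0 CPM to 4.61, 3.83 and 6.47 CPM (-1.49 ± 0.15, adjusted p = 8.84e-07). The secreted inhibitor Igfbp4 fell from 228, 220 and 212 CPM to 87.2, 107 and 90.6 CPM (-1.21 ± 0.07, adjusted p = 1.33e-09). Igf1r and Igfbp4 thus differed in opposite directions.

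The other mannose 6-phosphate receptor, M6pr, rose (0.41 ± 0.07, adjusted p = 0.000213) and Gnptab, the enzyme that starts making the tag both receptors read, fell (-0.66 ± 0.08, adjusted p = 3.72e-06). Irs2, Akt2, Akt1 and Insr rose too and were named after their values were seen. Of these, Akt1 (0.12, adjusted p = 0.214) and Insr (0.11, adjusted p = 0.337) lost the call under TMM. Leaving out Syndecan-2- replicate 3 ended both calls (0.20 and 0.18, adjusted p = 0.0922 and 0.164). The growth factor Igf1 was at 1.54, 0.959 and 1.37 CPM in Syndecan-2+ and at most 0.709 CPM elsewhere.

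Of 12 factors that set or keep imprints, 9 were tested, with 1 called higher, 2 lower and 6 not called (median -0.08). This stands beside 30.0% of all tested genes called in either direction, 20.5% higher and 9.51% lower. Zfp57, the zinc finger protein that protects imprints in the early embryo, was 1.18, 0.704 and 1.26 CPM in Syndecan-2- and 1.87, 2.47 and 2.14 CPM in Syndecan-2+ (0.63 ± 0.20, adjusted p = 0.0249), and leaving out Syndecan-2+ replicate 3 ended the call (0.63, adjusted p = 0.0593), as did leaving out Syndecan-2- replicate 2 (0.50, adjusted p = 0.116) or Syndecan-2+ replicate 2 (0.56, adjusted p = 0.0870). Uhrf1, which brings the maintenance methyltransferase to replicating DNA, was 94.0, 90.9 and 83.8 CPM in Syndecan-2- and 70.4, 70.8 and 68.3 CPM in Syndecan-2+ (-0.35 ± 0.07, adjusted p = 0.000435). The methyltransferase Dnmt1 itself was 256, 263 and 253 CPM and 257, 246 and 234 CPM, and did not pass (-0.07 ± 0.07, adjusted p = 0.495). Arid4a was called lower (-0.26, adjusted p = 0.0319), a call that leaving out Syndecan-2- replicate 2 (-0.19, adjusted p = 0.147), Syndecan-2- replicate 1 (adjusted p = 0.0603), Syndecan-2+ replicate 1 (adjusted p = 0.122) or Syndecan-2+ replicate 3 (adjusted p = 0.114) ended. With TMM rescaling 6 of the 9 were called. Zfp57 was higher (0.56, adjusted p = 0.0447) and the others were lower, Dnmt1 (-0.19, adjusted p = 0.0290) among them. Over all 13997 tested genes that setting called 1992 higher and 1987 lower.

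Genes whose pattern over the 9 libraries was most like a member's, by Pearson correlation of log2(CPM + 1) among genes of at least 5 CPM on average, are given as a description. For Grb10 they included Cd9 (0.996) and Gucy1a3 (0.996), and they were for Ndn Tns2, Scamp1 and Mycn (0.990 to 0.996), and for Meg3 Kif1b, Nckap1 and Pbx3 (0.992 to 0.993). Cdkn1c was most like Tceal8 (0.991), Slfn2 and Tbrg1, H19 most like Pggt1b (0.972), Arhgap31 and Shc1, and Dlk1 most like Eif4e (0.976), Lrrc47 and Clic4. Igf2r was nearest to Tbrg1 (0.970), Ltb and Tmem63a, and Gnas to Cinp (0.941), Sugt1 and Tmem161a. The points of such a correlation are 3 populations of 3 libraries, so that any gene that follows the sort scores high.

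Markers of other cell types moved with the sort in part. The plasma cell list (8 of 8 listed) summed to 137 to 166 CPM in Syndecan-2-, 347 to 404 CPM in Parent and 1153 to 1436 CPM in Syndecan-2+, where its immunoglobulin genes and Jchain were high while Tnfrsf17 stayed at or under 0.583 CPM and Mzb1 at or under 2.14 CPM. Of its 7 tested genes 6 were called higher and 0 lower in Syndecan-2+ against Syndecan-2-, among them the plasma cell regulators Xbp1, at 25.3 ± 3.16 and 38.4 ± 3.42 CPM (0.58, adjusted p = 0.00152), and Prdm1, at 0.623 ± 0.219 and 1.58 ± 0.653 CPM (0.65, adjusted p = 0.0407). Over all tested genes 20.5% were called higher and 9.51% lower in this comparison. Igha was at 0 in all 3 Syndecan-2- libraries. The stromal list (5 of 10 listed) summed to 30.2 to 34.5 CPM, 24.5 to 33.1 CPM and 13.2 to 46.1 CPM, the last value being library 3 of Syndecan-2+, which also had the highest H19, Igf2, Ndn, Grb10, Plagl1, Dlk1 and Meg3. In the other 8 libraries most of the sum was Pdgfrb, which fell from 32.1 ± 2.16 to 8.74 ± 1.16 CPM. Col1a2 rose through the sort in every library, from 0.265, 0.0508 and 0.263 CPM in Syndecan-2- through 0.801, 0.7 and 0.913 CPM in Parent to 2.07, 2.38 and 15.5 CPM in Syndecan-2+ (2.22 against Syndecan-2-, adjusted p = 0.000660). The endothelial list (7 of 7) summed to 105 to 124 CPM, 102 to 114 CPM and 76.8 to 84.0 CPM, and mature lineage markers (6 of 10) to 128 to 144 CPM, 120 to 131 CPM and 89.6 to 96.6 CPM, so both sums were lowest in Syndecan-2+. Of the 6 tested endothelial genes 2 fell and 3 rose, beside the same shares over all genes. Those that rose were Tek, at 5.45 ± 0.896 and 24.7 ± 3.42 CPM (2.00, adjusted p = 4.03e-09), Kdr, at 0.403 ± 0.339 and 3.26 ± 0.518 CPM (1.62, adjusted p = 1.11e-05), and Stab2 (0.91, adjusted p = 0.00375). Prdm1, Col1a2 and Stab2 reached the tested level only through the Syndecan-2+ libraries, so their calls are no independent support. Without library 3, 5 members were called higher in Syndecan-2+ against Syndecan-2-, beside 16.6% of all genes. Grb10 then stood at 2.90 (adjusted p = 6.92e-10), Meg3 at 2.88 (adjusted p = 3.28e-07) and Cdkn1c at 2.16 (adjusted p = 9.72e-06), so these differences were about as large without that library. The part of plasma, stromal or endothelial cell RNA in the members' differences was not tested.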

How the data were processed

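RNA-seq of 9 libraries, 3 per population, was used. The authors deposited CPM per transcript, per the file headers, in 1 table for the series. The submitters' processing notes name STAR, Bowtie2 and GRCm38, without versions or roles; how reads were counted, to what total they were scaled and whether strand was used is not given in these sources. Transcripts without reads are listed at 0.0001, which was subtracted, and CPM was summed per gene symbol. The table's CPM sum to 51.5 to 54.5% of the implied total, and 12988 to 13612 genes per library reached 1 CPM. Low genes gave whole reads (within 0.1 read) in only 63.9 to 66.6% of cases, so no count test was run.

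Genes with at least 1 CPM in 3 of 9 libraries were tested with limma 3.58.1 in R 4.3.3 (lmFit, contrasts, eBayes with trend) on log2 of CPM plus 1, all libraries in 1 fit, with Benjamini-Hochberg adjustment. The table's transcripts were tested likewise. Transcript shares and Peg3 were compared by exact two-sided permutation. Coordinates are those of the deposited table, lengths came from GENCODE M21, and figures were drawn with matplotlib 3.10.9 in Python 3.11.15. Same-numbered libraries deviated together (r = 0.117 to 0.259 over 9 pairs, others -0.206 to 0.00483 over 18 pairs), so the numbers were used as a block in alternative fits. The main fit and the permutation tests did not use this pairing. No 2 libraries held identical values. On simulated data for Syndecan-2+ against Syndecan-2- (13997 genes, 200 changed) 43% of 1.5-fold, 84% of 2-fold and 97.5% of 4-fold changes were recovered, and unchanged genes made up 6.52, 4 and 1.52% of calls. These folds are of CPM plus 1, so for genes near or under 1 CPM they stand for larger folds of CPM. The simulated noise was independent between libraries, without the pairing of replicate numbers. Recovery of changes in low members may therefore be poorer than these shares.

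The members, gene lists and naming rule were chosen with earlier results of these data known. The rule names every member and its transcripts, up to 8 called genes per list by p, and the 3 most correlated genes per tested member. Some genes that the rule names are not reported here. Alternatives were pseudocounts of 0.1 and 5, no filter or 10 CPM, TMM (trims of 0.3 and 0.05), quantile-normalized values, a fit without trend, the 6 libraries alone, the replicate block, also with TMM, each library left out, transcripts in place of genes and a lower limit for transcript shares.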

Additional observations from a re-analysis of the deposited data

How the results depend on the processing

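Cdkn1c, H19, Meg3, Grb10 and Ndn kept their calls of Syndecan-2+ over Syndecan-2- and over Parent in every alternative in which they were tested as genes. Tested by transcript, they kept the calls over Syndecan-2-, but over Parent neither Cdkn1c transcript was called (adjusted p = 0.441 and 0.0841). A minimum of 10 CPM leaves most members untested by construction: it gave 2 called members against Syndecan-2-, 1 against Parent and 1 between Syndecan-2- and Parent, 1 called member transcript, and 2609 and 1507 genes called for Syndecan-2+ against Syndecan-2- and against Parent. Testing transcripts in place of genes gave 2533, 964 and 42 calls in the 3 comparisons, and 0 member transcripts between Syndecan-2- and Parent. In that comparison the replicate block gave 685 genes and the block with TMM 608, and the cause was not tested. The replicate block also called Igf2r (0.25) and Cdkn1c (-0.87), as the report gives, and changed no other call among the members. It ended no call in the other lists and added some: in Syndecan-2+ against Syndecan-2- Gatm, Trappc9, Peg13, Trim28, Ly6a and Mzb1, against Parent Peg10 (1.12, adjusted p = 0.000371), Osbpl5 (-0.47, adjusted p = 0.0298) and Tssc4 (0.32, adjusted p = 0.0342) among others, and between Syndecan-2- and Parent Igfbp4 (0.24, adjusted p = 0.0320), Kit and Cd34 beside those in the report.

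With 1 library left out, the genes called numbered 3496 to 4234 for Syndecan-2+ against Syndecan-2-, 1775 to 2411 against Parent and 217 to 365 for Syndecan-2- against Parent. Members called were 5 to 6, 5 and 3 to 4, member transcripts 7 to 8, and transcripts with separate shares 2 to 10, the last without Syndecan-2- replicate 3. Signs turned only in differences that were not called. For Syndecan-2+ against Parent, Gnas went to -0.03 under TMM, alone or with the block, -0.01 and -0.00 without Parent replicate 1 or 3, and -0.02 without Syndecan-2+ replicate 2, and to 0.06 without Syndecan-2+ replicate 1. For Syndecan-2- against Parent, H19 ranged from -0.44 without Syndecan-2- replicate 2 and went to 0.00 under quantile normalization and 0.02 without Syndecan-2- replicate 1, and Igf2r ranged from -0.06 without Syndecan-2- replicate 3 and went to 0.04 under TMM, quantile normalization and the block with TMM, 0.00 without Syndecan-2- replicate 1 and 0.01 without Parent replicate 3. Of the other results for named genes and lists, 1031 comparisons with an alternative stayed on their side of the threshold and 41 lost it, in the same direction. Depth limits Dlk1, Peg3, Plagl1 and the transcript shares of Meg3 most, where a library holds a few reads.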

Other observations

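The genes beside the members were also read. Within 250 kb of a member, a window chosen after the data were seen, 62 other genes were listed and 40 tested. Of these 7 were higher in Syndecan-2+ against Syndecan-2- (17.5%, against 20.5% of all tested genes). Another 6 of the 40 were lower, beside 9.51% of all tested genes. The genes that rose included imprinted neighbours, Rian beside Meg3 and Dlk1, Phlda2 near Cdkn1c, Slc22a3 and Airn near Igf2r and Peg12 near Ndn, and also Utrn (0.43, adjusted p = 9.71e-05) and the syntaxin Stx11 (1.20, adjusted p = 0.000333) near Plagl1. The genes that fell lay near Cdkn1c, H19 and Grb10, which rose, as did most tested members. Ikzf1, which encodes the lymphoid transcription factor Ikaros and neighbours Grb10, was 156 ± 6.75 CPM in Syndecan-2- and 89.5 ± 2.21 CPM in Syndecan-2+ (-0.80 ± 0.07, adjusted p = 6.06e-08), and Gm12000 in the same region fell too (adjusted p = 0.00273). Lsp1, a leukocyte protein gene near H19, was 75.6 ± 8.03 CPM and 36.7 ± 3.52 CPM (-1.02 ± 0.09, adjusted p = 8.75e-08). None of the 8 tested neighbours of Gnas was called. Among them, Gm20721 (174330319 to 174346712) lies inside the span of Gnas. It was at 46.9 ± 9.82 CPM in Syndecan-2-, 47.5 ± 14.2 CPM in Parent and 63.0 ± 7.47 CPM in Syndecan-2+ (0.43 for Syndecan-2+ against Syndecan-2-, adjusted p = 0.0595). How reads were divided between it and Gnas is not given, and the Gnas levels and shares may depend on it.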
